A study of Mus musculus with 18 samples.

Results

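The lung transcriptome of AD model mice was compared with that of untreated mice, using the lung libraries that carry the AD or the control disease-state label, 6 of the 18 libraries of the series. The 3 AD libraries came from female wild-type mice that received the vitamin D analogue calcipotriol (MC903, 4 nmol) together with the model allergen ovalbumin (50 µg) over 28 days. The 3 control libraries came from female wild-type mice that received neither agent, so the effect of the agents and that of the disease they induce cannot be told apart. A further 3 lung libraries from mice that received both agents and a linoleic acid-ceramide emollient (La-Cer) entered the fits so that the spread was estimated on all 9 lung libraries, and their levels are given only as context. The labels used here state neither strain, age, site of calcipotriol application nor route of ovalbumin, and RNA was taken from lung tissue of 3 mice per group.

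In the atopic march, sensitisation through inflamed skin precedes allergic disease of the airways. Calcipotriol on skin makes keratinocytes release the alarmin TSLP, and ovalbumin then serves as the allergen against which T helper 2 cells and IgE are raised. In an allergic lung the cytokines IL-4, IL-5 and IL-13 drive mucus production and eosinophil influx, basophils and mast cells carry the IgE receptor, and neutrophils enter through chemokine receptors such as CXCR2. Antigen is shown to helper T cells on MHC class II molecules, which dendritic cells, B cells and macrophages carry.

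Lung libraries held between 15904723 and 19338972 counts. The lung label was checked on surfactant protein C (Sftpc), the defining transcript of alveolar type 2 cells, which stood at 15358, 16462 and 15308 CPM (read counts scaled to library size and composition) in AD lungs and 38652, 16319 and 13953 CPM in control lungs. Control replicate 1 stood apart from all other lung libraries. It lay at 97.3 on the first principal component, which held 45.2% of the variance, while the other 8 libraries lay between -76.8 and 43.1. Its mean correlation with the other controls was 0.910, against 0.944 to 0.986 for the remaining libraries within their own groups. The means of control replicates 2 and 3 include control replicate 1, and these 2 libraries correlated with each other at 0.983. Genes were split into 5 equal classes by exonic size. The longest class differed from the shortest by -1.17 log2 units in this library, whereas the difference was 0.70, 0.41 and 0.33 in AD lungs and 0.25 and 0.23 in the remaining control lungs. Counts of changed genes are therefore given with all 3 control libraries and without control replicate 1.

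**Figure D1:**
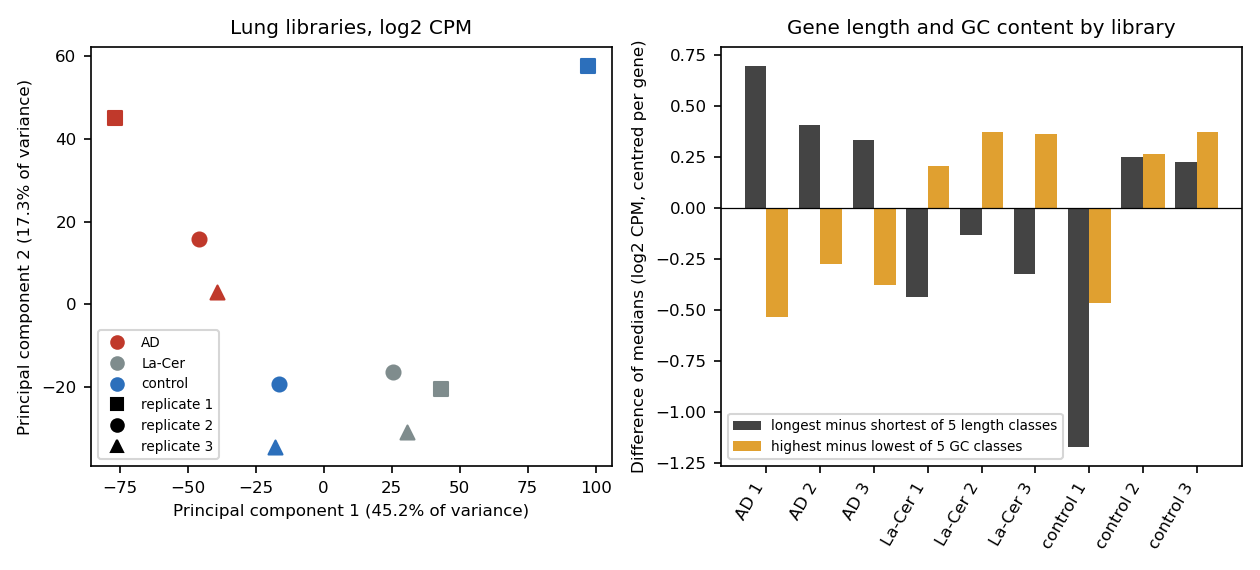
Left, the 9 lung libraries on the first 2 principal components of log2 CPM, with colour for the group and shape for the replicate. Right, for each library, bars give the difference between the median level of the longest and the shortest of 5 classes of genes and between the highest and the lowest of 5 classes by GC content, in log2 CPM after centring each gene on its mean. Control replicate 1 sits alone at 97.3 on the first component and has the lowest length difference, -1.17.

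With all 3 controls, 8 of 17272 genes tested changed at an adjusted p under 0.05 (edgeR quasi-likelihood test, Benjamini-Hochberg adjustment over all genes), which is 0.0463% of the genes tested. Of these, 1 was higher in AD lungs (0.00579%) and 7 were lower (0.0405%). In each of the 8 the AD and control libraries did not overlap, and 24.3% of all genes tested did not overlap either. The count was 0 without AD replicate 1 and 0 without AD replicate 2 (edgeR, with 2927 and 3081 genes at an unadjusted p under 0.05), 3 without AD replicate 3, 12 without control replicate 2 and 3 without control replicate 3. DESeq2 called 1492 genes on all 3 controls, and edgeR 96 (0.556%) with the trends in length and GC content described below removed. The smallest adjusted p was 0.0302, and 3607 genes had an unadjusted p under 0.05.

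Ptgs2 (ENSMUSG00000032487, chr1:150100031-150108227, GRCm38), which encodes the inducible cyclooxygenase that starts prostaglandin synthesis, was the gene that rose. It stood at 51.4, 39.5 and 39.0 CPM in AD lungs and 14.5, 10.6 and 10.8 CPM in control lungs. Every AD library lay far above every control library, for a log2 fold change of 1.86 ± 0.21 (SE, edgeR adjusted p = 0.0313). The La-Cer lungs lay at the level of the controls, at 11.3, 13.4 and 11.4 CPM. Of the other 18 tested genes on the list for oxygenation of arachidonic and linoleic acid, none passed the test, and the constitutive cyclooxygenase Ptgs1 stood at 159, 77.1 and 53.2 CPM in AD lungs and 59.0, 64.6 and 56.5 CPM in control lungs.

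H2-Ab1 (ENSMUSG00000073421, chr17:34257689-34269419), the beta chain of the MHC class II molecule I-A, fell to 7.82, 14.6 and 15.2 CPM in AD lungs, against 78.1, 48.3 and 69.6 CPM in control lungs. The highest AD library was below the lowest control library, and the log2 fold change was -2.38 ± 0.29 (SE, edgeR adjusted p = 0.0313). La-Cer lungs lay between the groups, at 34.8, 35.4 and 32.0 CPM. Upp1 (ENSMUSG00000020407, chr11:9118103-9136170), uridine phosphorylase of the pyrimidine salvage pathway, stood at 10.1, 10.2 and 9.83 CPM in AD lungs and 45.1, 29.0 and 33.3 CPM in control lungs, a log2 fold change of -1.83 ± 0.21 (SE, edgeR adjusted p = 0.0313). Abhd17a (ENSMUSG00000003346, chr10:80583654-80590341), a depalmitoylase of membrane proteins such as Ras, stood at 34.8, 41.3 and 40.8 CPM in AD lungs and 111, 93.6 and 97.4 CPM in control lungs. Its 3 AD libraries were close together and its log2 fold change was -1.37 ± 0.17 (SE, edgeR adjusted p = 0.0324). Without control replicate 1 the log2 fold change of Abhd17a was -1.29. It was -0.75 (edgeR adjusted p = 0.0126) with the trends in length and GC content described below also removed. Fam167b (ENSMUSG00000050493, chr4:129576815-129578549) was low in all lungs, at 0.537, 0.69 and 0.452 CPM in AD and 4.78, 2.86 and 3.87 CPM in control, with a log2 fold change of -2.76 ± 0.34 (SE, edgeR adjusted p = 0.0313).

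Rps16 (ENSMUSG00000037563, chr7:28350652-28353155), a protein of the small ribosomal subunit, stood at 14.1, 15.6 and 20.9 CPM in AD lungs and 421, 135 and 145 CPM in control lungs. The 3 AD libraries lay well below all controls, control replicate 1 was by far the highest, and the log2 fold change was -3.79 ± 0.46 (SE, edgeR adjusted p = 0.0313). Without control replicate 1 its log2 fold change was -3.05 ± 0.18 and its edgeR adjusted p of 0.000547 was the smallest of all genes tested. Gm3756 and Gm8210, which GENCODE annotates as processed pseudogenes and which are named here because they passed the test, also fell. Gm3756 (chr9:31935446-31936800) stood at 3.94, 3.85 and 4.52 CPM in AD lungs and 23.9, 17.7 and 16.97 CPM in control lungs, and Gm8210 (chr1:43189156-43189638) at 4.06, 2.87 and 3.33 CPM in AD lungs and 48.5, 21.2 and 20.4 CPM in control lungs. Ribosomal protein genes and processed pseudogenes have near-identical copies elsewhere in the genome. These 3 values are uncertain, since no source used here says how reads that match several places were counted.

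**Figure D2:**
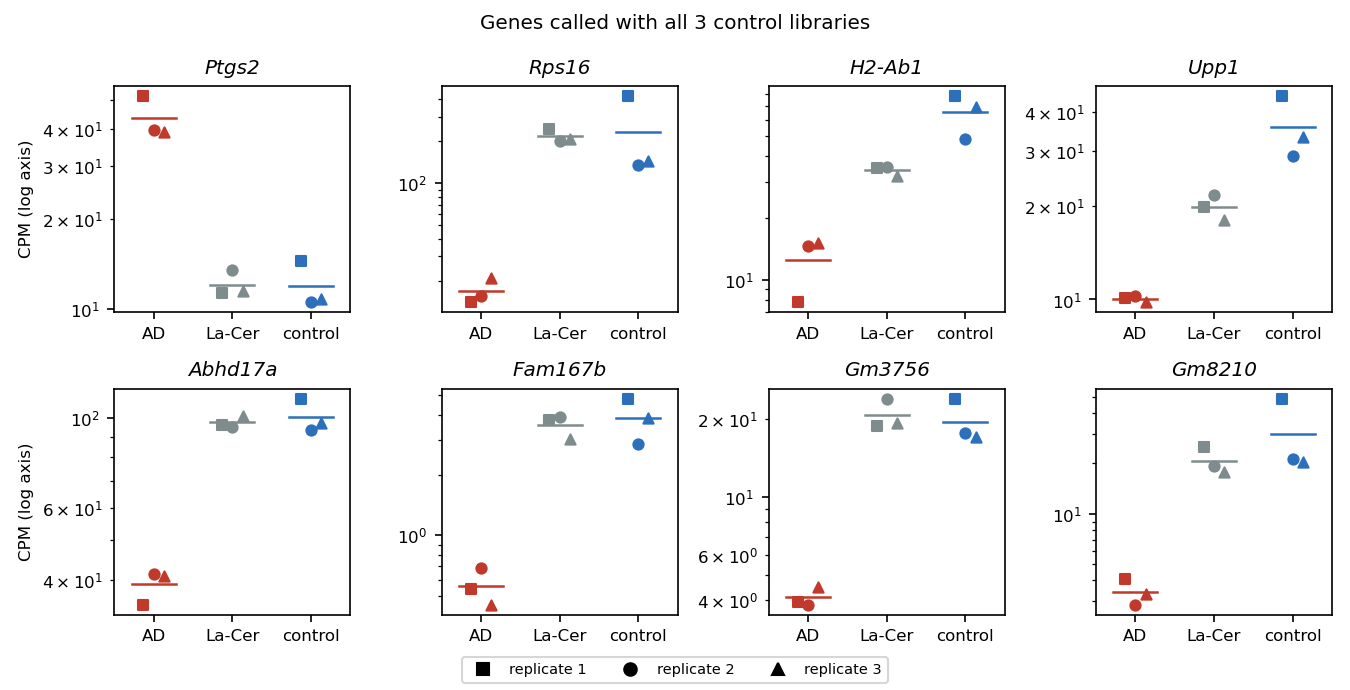
CPM on a log axis in each lung library for the 8 genes that passed the test with all 3 controls; points are libraries, shapes are replicates and horizontal lines are group means. AD libraries lie above all controls for Ptgs2 and below all controls for the other 7 genes, and La-Cer libraries lie between the groups for H2-Ab1 and Upp1.

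Among genes that were higher in AD lungs, the next smallest p-values with all 3 controls belonged to Cxcr2, Dennd1b, Inpp4b and Lilr4b, which did not pass the test (edgeR adjusted p = 0.0543 for each). Dennd1b, a regulator of receptor uptake in T helper 2 cells, stood at 32.9, 27.1 and 28.6 CPM in AD lungs and 12.6, 13.8 and 14.6 CPM in control lungs. Inpp4b, a phosphoinositide phosphatase, stood at 27.1, 26.3 and 23.1 CPM in AD lungs and 8.47, 10.3 and 12.8 CPM in control lungs. Dennd1b and Inpp4b are long genes, with 19408 and 13066 exonic bases. Without control replicate 1 their log2 fold changes were 1.06 and 1.15. With the trends in length and GC content described below also removed they were 0.65 and 0.64 (edgeR adjusted p = 0.0407 and 0.0898). Lilr4b, a leukocyte immunoglobulin-like receptor, stood at 22.3, 67.6 and 30.9 CPM in AD lungs and 6.20, 7.58 and 7.13 CPM in control lungs. No AD library overlapped a control library for any of the 4 genes, which were picked by their p-values. Of all genes tested, 12.3% were likewise higher in AD lungs without overlap.

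Without control replicate 1, 992 of 17656 genes tested changed, which is 5.62%, of which 425 (2.41% of those tested) were higher and 567 (3.21%) were lower in AD lungs. All 8 genes above were among them, and no other gene named below passed with all 3 controls. Of the 992, 989 had the same sign with all 3 controls. The count rests on the 2 remaining controls and on the spread shared with the La-Cer lungs. It was 2 when only the 5 libraries compared were fitted, 20 without control replicate 2 and 8 without control replicate 3, where a lone control is assumed to vary like the other groups, and 2157 without AD replicate 1. All 992 genes kept the sign of their fold change in those 3 fits that leave out a library, and so did all 990 with a value in the fit of 5 libraries. These fits and the fit with all 3 controls share the libraries that gave the calls, so kept signs are no independent support. Genes that were higher had a median exonic size of 5877 bases and a median transcript GC content of 42.0%, whereas those that were lower had 2918 bases and 56.1%, and all genes tested had 3868 bases and 49.7%. Of 5 classes by GC content, the highest differed from the lowest by -0.53, -0.27 and -0.38 log2 units in AD lungs, against 0.27 and 0.37 in the 2 remaining controls and -0.46 in control replicate 1. Removing the trends with length and GC content from each library, an alternative chosen after the data were seen, left 256 genes (1.45%), 71 higher (0.402%) and 185 lower (1.05%), of which 207 were among the 992. Gene groups below are counted without control replicate 1 unless stated otherwise, and their counts read against the 2.41% and 3.21% of all genes. The 3 AD and 2 remaining control libraries did not overlap for 41.2% of the genes tested. The median log2 fold change of all genes tested was 0.03.

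Genes of neutrophils, basophils and other myeloid cells were among the largest rises without control replicate 1. Of 13 neutrophil genes tested on a list of 15, 4 rose and none fell, and 10 did not overlap and were higher in AD lungs, a state shared by 21% of all genes. The list's median log2 fold change was 2.47, and 1.99 with all 3 controls. In bulk lung RNA, more cells of a type and more RNA per cell cannot be told apart. S100a8, a subunit of the calcium-binding alarmin calprotectin, stood at 68.7, 45.2 and 18.3 CPM in AD lungs and 19.6, 4.998 and 6.34 CPM in control lungs (log2 fold change 2.96 ± 0.50 SE, edgeR adjusted p = 0.0226). Its partner S100a9 stood at 113, 84.5 and 29.1 CPM in AD lungs and 65.3, 19.9 and 15.2 CPM in control lungs (log2 fold change 2.11 ± 0.49 SE, edgeR adjusted p = 0.048). Control replicate 1 lay inside the AD range for both subunits, and they were the 2 of 10 tested genes that rose on the list for interleukin 17 and neutrophil recruitment, where every tested fold change was positive. Cxcr2, the receptor through which neutrophils follow CXC chemokines, stood at 25.0, 30.8 and 9.88 CPM in AD lungs and 2.88, 4.44 and 3.08 CPM in control lungs (log2 fold change 2.55 ± 0.47 SE, edgeR adjusted p = 0.0276). All 3 controls lay below all AD lungs for Cxcr2. Stfa2l1, a stefin A-like inhibitor of cysteine proteases found in mouse neutrophils, stood at 4.48, 7.53 and 2.82 CPM in AD lungs and 1.47, 0.842 and 0.121 CPM in control lungs (log2 fold change 3.33 ± 0.69 SE, edgeR adjusted p = 0.0353). With the trends in length and GC content removed none of the 4 passed, at edgeR adjusted p-values of 0.0567 for S100a8, 0.119 for S100a9, 0.0567 for Cxcr2 and 0.0864 for Stfa2l1.

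Other neutrophil genes did not pass the test. Csf3r, the G-CSF receptor, stood at 40.8, 40.6 and 16.3 CPM in AD lungs and 6.81, 12.7 and 9.30 CPM in control lungs (edgeR adjusted p = 0.0575), and Mmp8, neutrophil collagenase, at 21.9, 14.5 and 1.86 CPM in AD lungs and 0.736, 0.786 and 1.33 CPM in control lungs (edgeR adjusted p = 0.0633). AD replicate 3 was the lowest AD library for both, and for S100a8, S100a9 and Cxcr2 as well. The lineage marker Ly6g was at 0.717, 0.69 and 0.339 CPM in AD lungs and 0.0613, 0 and 0 CPM in control lungs. The summed CPM of the neutrophil list was 348, 430.2 and 152 in AD lungs and 285, 182 and 229.7 in control lungs, ranges that overlap. Lactoferrin (Ltf), which glands also make, was 6.75, 173 and 60.8 CPM of those sums in AD lungs and 177, 128 and 185 CPM in control lungs.

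Basophil genes rose as well. Mcpt8, the basophil protease, stood at 2.63, 33.0 and 4.07 CPM in AD lungs and 0.675, 0.112 and 0.181 CPM in control lungs, from 44, 574 and 72 counts in AD and 11, 2 and 3 counts in control. Its log2 fold change was 6.45 ± 1.48 (SE, edgeR adjusted p = 0.0465), with AD replicate 2 well above the other AD lungs, and the low control counts make the size of this fold change imprecise. Ms4a2, the beta chain of the high-affinity IgE receptor, stood at 2.51, 12.8 and 4.46 CPM in AD lungs and 0.491, 0.337 and 0.785 CPM in control lungs (log2 fold change 3.56 ± 0.77 SE, edgeR adjusted p = 0.0391). Cd200r3, an activating receptor of mouse basophils and mast cells, stood at 1.37, 9.71 and 2.71 CPM in AD lungs and 0.307, 0.281 and 0.181 CPM in control lungs (log2 fold change 4.28 ± 0.95 SE, edgeR adjusted p = 0.0415). AD replicate 2 was the highest library for all 3 genes, and none of them passed with the trends in length and GC content removed (edgeR adjusted p = 0.082, 0.101 and 0.0954). Of 12 genes tested on the list for mast cells and basophils, Mcpt8 and Ms4a2 rose and none fell. Of the genes of tissue mast cells, the chymase Cma1 stood at 0.657, 2.41 and 1.92 CPM in AD lungs and 6.13, 2.02 and 1.87 CPM in control lungs, the chymase Mcpt4 at 2.27, 3.10 and 8.25 CPM in AD lungs and 6.75, 4.38 and 6.10 CPM in control lungs, and neither passed the test. Cpa3 and Hdc of the list had positive fold changes, whereas Tpsb2, Tpsab1 and Kit had negative ones, and none of these passed.

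Further large rises were in Slfn4, Clec4e and Cstdc4. Slfn4, a schlafen gene of myeloid cells that responds to interferon, stood at 13.7, 50.9 and 132 CPM in AD lungs and 8.83, 4.83 and 3.26 CPM in control lungs (log2 fold change 4.02 ± 0.90 SE, edgeR adjusted p = 0.0456). Clec4e, the macrophage receptor Mincle, stood at 4.66, 6.67 and 2.82 CPM in AD lungs and 1.902, 0.73 and 0.544 CPM in control lungs (log2 fold change 2.88 ± 0.47 SE, edgeR adjusted p = 0.0195). Cstdc4, a gene with a cystatin domain, stood at 5.43, 6.95 and 2.15 CPM in AD lungs and 0.859, 0.449 and 0.302 CPM in control lungs (log2 fold change 3.67 ± 0.60 SE, edgeR adjusted p = 0.0198). AD replicate 3 was the highest library for Slfn4 and the lowest AD library for the other 2. The macrophage and neutrophil chemokine Ccl9 rose to 53.6, 103 and 32.6 CPM in AD lungs, against 38.4, 14.4 and 18.1 CPM in control lungs (edgeR adjusted p = 0.0448), with control replicate 1 inside the AD range. Clec4e and Cstdc4 still rose once the trends in length and GC content were removed, while Slfn4 and Ccl9 did not pass (edgeR adjusted p = 0.082 and 0.112). Among 17 chemokines tested, Ccl9 and the lung neutrophil attractant Cxcl15 rose and Cxcl12 fell, and none of the 17 passed with those trends removed.

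**Figure D3:**
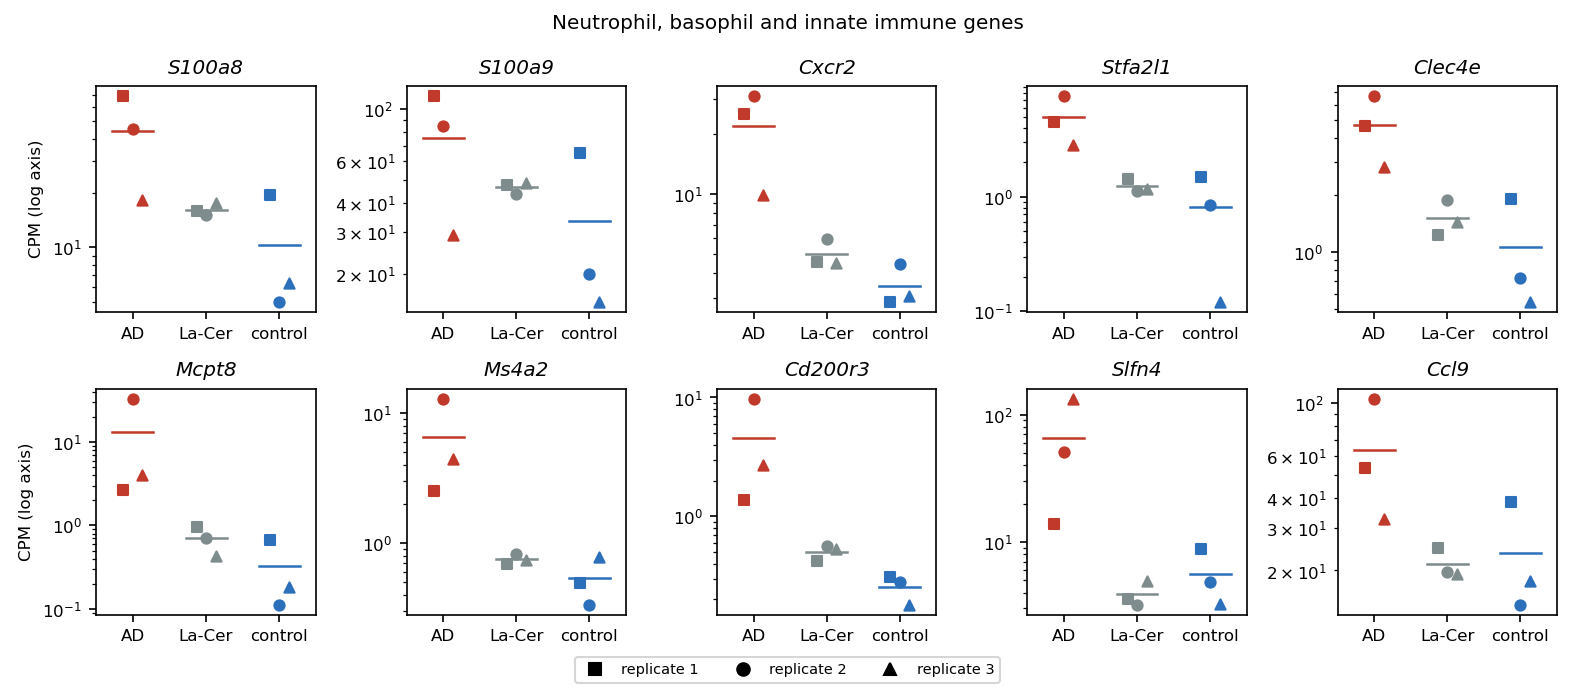
CPM on a log axis in each lung library for 10 genes of neutrophils, basophils and other innate cells; points are libraries, shapes are replicates and lines are group means. Without control replicate 1, drawn as a blue square, the 3 AD libraries lie above the controls in every panel, and AD replicate 2 is the highest library for Mcpt8, Ms4a2 and Cd200r3.

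The cytokines of type 2 immunity did not pass the test. Il4 stood at 2.33, 3.68 and 3.11 CPM in AD lungs and 1.72, 1.85 and 2.60 CPM in control lungs (edgeR adjusted p = 0.417). Il13 was below the level at which genes were tested, with 1, 6 and 0 counts in AD lungs and 0 counts in each control, where 3 counts per library, the limit that a count of 0 allows, amount to 0.184, 0.168 and 0.181 CPM. Il5 had 1, 3 and 0 counts in AD lungs and 1, 2 and 2 counts in control lungs. Chil3 (Ym1), a chitinase-like protein of alternatively activated macrophages, had the largest fold change on the list of 19 tested type 2 genes. It stood at 398, 613 and 117 CPM in AD lungs and 85.0, 60.6 and 58.9 CPM in control lungs without overlap, but missed the threshold (log2 fold change 2.66 ± 0.65 SE, edgeR adjusted p = 0.0523; 0.084 with all 3 controls). Retnla, another gene linked to alternative activation that is also on the club cell list, stood at 36.5, 78.4 and 56.8 CPM in AD lungs and 25.2, 65.9 and 82.2 CPM in control lungs. The eosinophil attractant Ccl11 stood at 1.43, 1.55 and 2.03 CPM in AD lungs and 4.11, 2.13 and 2.48 CPM in control lungs. Gata3, the regulator of T helper 2 cells, was the only gene of the list to change: it fell to 12.0, 12.0 and 12.1 CPM in AD lungs, against 3.56, 16.9 and 24.7 CPM in control lungs (edgeR adjusted p = 0.0469), with control replicate 1 below all AD lungs. It did not pass once the trends in length and GC content were removed (edgeR adjusted p = 0.0884).

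Epithelial alarmins likewise did not pass. Tslp stood at 7.88, 8.22 and 6.27 CPM in AD lungs and 10.1, 5.56 and 5.92 CPM in control lungs (edgeR adjusted p = 0.367), and Il33 at 96.2, 108 and 46.5 CPM in AD lungs and 77.3, 63.4 and 57.6 CPM in control lungs (edgeR adjusted p = 0.386). All 12 tested genes of the alarmin and interleukin 1 family list had positive fold changes, with a median of 0.62, and none passed. Il6, an inflammatory cytokine, stood at 1.19, 2.30 and 0.847 CPM in AD lungs and 0.613, 0.0562 and 0.302 CPM in control lungs (edgeR adjusted p = 0.0543). Airway mucus genes gave no call among 15 tested: Muc5ac, the mucin of goblet cells, stood at 0.179, 0.402 and 1.19 CPM in AD lungs and 1.29, 0.73 and 2.174 CPM in control lungs, and Clca1, induced by IL-13 in goblet cells, at 0, 1.95 and 4.46 CPM in AD lungs and 1.78, 2.08 and 1.27 CPM in control lungs. Eosinophil genes gave no call among 3 tested, Ear2, Alox15 and Siglecf, with Siglecf between 4.24 and 11.5 CPM in AD lungs and between 4.77 and 6.34 CPM in control lungs. The other members of the list could not be tested. Epx and Ear6 stood at 0 CPM in every lung library, and Prg2, Ccr3 and Il5ra were below the level at which genes were tested. T cell, B cell and antibody lists gave no call among 19, 14 and 12 genes. Of the antibody genes, Ighg1, the constant region of IgG1, stood at 6.33, 29.7 and 2.15 CPM in AD lungs and 3.07, 5.50 and 2.96 CPM in control lungs, high in AD replicate 2 alone. Only Ighg1 and Ighd of the tested antibody genes had positive fold changes. Igkc, the kappa constant region, stood at 107, 81.5 and 52.1 CPM in AD lungs and 251, 163 and 140 CPM in control lungs. It did not pass (edgeR adjusted p = 0.084).

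Interferon-stimulated genes varied within the AD group. No gene of the 18 tested passed, although the median log2 fold change was 1.69, and 4 had an unadjusted p under 0.05. Their summed CPM was 324, 581 and 2462 in AD lungs and 616, 484 and 431 in control lungs, so AD replicate 3 stood alone. Irf7, the regulator that amplifies type I interferon, stood at 12.3, 33.0 and 242 CPM in AD lungs and 23.2, 20.4 and 19.2 CPM in control lungs, and Oasl2, an antiviral oligoadenylate synthetase-like protein, at 23.7, 52.5 and 319 CPM in AD lungs and 16.0, 38.7 and 32.7 CPM in control lungs. With all 3 controls the list's median was 1.42, and it was -0.11 without AD replicate 3.

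Of 11 tested genes on the list for MHC class II presentation, 4 fell and none rose. H2-Ab1 had a log2 fold change of -2.22 ± 0.27 (SE, edgeR adjusted p = 0.0104). H2-Aa, the alpha chain that pairs with it, stood at 17.02, 25.3 and 22.7 CPM in AD lungs and 60.9, 41.8 and 57.3 CPM in control lungs (log2 fold change -1.18 ± 0.19 SE, edgeR adjusted p = 0.0182). H2-Eb1, the beta chain of the I-E molecule, stood at 57.3, 71.4 and 75.3 CPM in AD lungs and 179.9, 119 and 127 CPM in control lungs (log2 fold change -0.85 ± 0.14 SE, edgeR adjusted p = 0.0214). Cd74, the invariant chain that guides class II molecules to the endosome, stood at 433, 553 and 499.7 CPM in AD lungs and 801, 842 and 911 CPM in control lungs (log2 fold change -0.82 ± 0.17 SE, edgeR adjusted p = 0.0349). H2-Eb1 and Cd74 are named because they passed the test. The groups did not overlap for any of the 4 genes, control replicate 1 included, and 12% of all genes tested were likewise lower without overlap. H2-Oa, H2-Ob and Ctss of the list had positive fold changes and did not pass. With the trends in length and GC content removed, H2-Ab1, H2-Aa and H2-Eb1 still fell, and Cd74 did not pass (edgeR adjusted p = 0.138). Ciita, the master regulator of class II transcription, stood at 6.51, 14.999 and 11.6 CPM in AD lungs and 9.75, 17.7 and 17.4 CPM in control lungs, and H2-DMa, which loads peptides, at 20.4, 37.6 and 29.5 CPM in AD lungs and 46.9, 41.4 and 37.4 CPM in control lungs; neither passed.

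Promoters of class II genes carry a conserved set of elements that recruit the CIITA complex, among them a CCAAT element bound by NF-Y. The sequences of H2-Aa and H2-Eb1, members that fell together, are shown from 250 bases before to 50 after the start site (RefSeq, GRCm38.p6), 5′ to 3′ on the strand of the gene, with matches to CCAAT on either strand (ATTGG on the other) in capitals.
H2-Aa, minus strand, chr17:34287774-34288073: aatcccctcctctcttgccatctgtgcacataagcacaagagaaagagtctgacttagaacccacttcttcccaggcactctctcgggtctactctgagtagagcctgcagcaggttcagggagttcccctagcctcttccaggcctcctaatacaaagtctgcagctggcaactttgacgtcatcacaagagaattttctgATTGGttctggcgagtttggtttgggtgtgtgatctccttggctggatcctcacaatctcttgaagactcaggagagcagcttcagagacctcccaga
H2-Eb1, plus strand, chr17:34305617-34305916: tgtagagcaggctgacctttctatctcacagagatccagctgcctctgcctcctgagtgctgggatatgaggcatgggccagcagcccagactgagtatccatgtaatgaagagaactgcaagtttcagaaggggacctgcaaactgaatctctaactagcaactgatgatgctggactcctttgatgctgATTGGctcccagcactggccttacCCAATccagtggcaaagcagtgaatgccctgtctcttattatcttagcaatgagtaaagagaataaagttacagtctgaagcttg
H2-Aa holds 1 match and H2-Eb1 holds 2, and 37.4% of 32851 promoters of the same length hold at least 1, so a match in these windows is a description only. H2-Ab1 is not shown. The motif was chosen after the values were seen.

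Of 15 tested dendritic cell genes 2 fell. Irf8, a regulator of dendritic cell development, fell to 23.4, 31.2 and 27.2 CPM in AD lungs, against 35.8, 45.3 and 46.9 CPM in control lungs (edgeR adjusted p = 0.0376), and Fscn1, a bundler of actin in mature dendritic cells, fell to 7.76, 17.2 and 12.0 CPM in AD lungs, against 14.8, 31.1 and 26.9 CPM in control lungs (edgeR adjusted p = 0.0437). The summed CPM of the dendritic cell list was 225, 202 and 155 in AD lungs and 157, 237 and 264 in control lungs, and overlapped. B cell genes summed to 68.9, 171 and 112 CPM in AD lungs and 127, 112 and 118 CPM in control lungs. The list for interstitial macrophages and monocytes summed to 780.5, 936 and 846 CPM in AD lungs and 1694, 1069 and 1002 CPM in control lungs without overlap, although 13 of its 16 tested members had positive fold changes. Its member Apoe, the lipid carrier apolipoprotein E, made up much of each sum. Apoe fell to 401, 384 and 339 CPM in AD lungs, against 1289.8, 720.2 and 636 CPM in control lungs (edgeR adjusted p = 0.0302). The lower sums in AD lungs are therefore not a fall of the list as a whole. None of these 3 genes passed once the trends in length and GC content were removed (edgeR adjusted p = 0.0766 for Irf8, 0.146 for Fscn1 and 0.251 for Apoe). The part of these cells in the class II values was not tested.

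Of 18 capillary endothelial genes tested, 4 fell and none rose, and 13 did not overlap and were lower in AD lungs, a state shared by 20.2% of all genes. Plvap, the protein of endothelial diaphragms, stood at 403, 301 and 236 CPM in AD lungs and 474, 910.2 and 1079 CPM in control lungs (log2 fold change -1.66 ± 0.22 SE, edgeR adjusted p = 0.0113). Tbx2, a transcription factor, stood at 309, 280.1 and 269 CPM in AD lungs and 181, 481 and 496 CPM in control lungs (log2 fold change -0.77 ± 0.14 SE, edgeR adjusted p = 0.0257). Icam2, an endothelial adhesion molecule, stood at 144, 111 and 96.8 CPM in AD lungs and 317, 218 and 211 CPM in control lungs (log2 fold change -0.87 ± 0.17 SE, edgeR adjusted p = 0.0306). Tie1, an orphan receptor of the angiopoietin system, stood at 321, 241 and 201 CPM in AD lungs and 169, 425 and 506 CPM in control lungs (log2 fold change -0.87 ± 0.21 SE, edgeR adjusted p = 0.0494). Icam2 and Tie1 are named because they passed. Control replicate 1 was the highest library for Icam2 but lay below all AD lungs for Tie1 and Tbx2, so those 2 falls rest on leaving it out. With the trends in length and GC content removed none of the 4 passed (edgeR adjusted p = 0.0624 for Plvap, the smallest of the 4), and Emcn, the endothelial sialomucin, was the 1 gene of the list that did, at 50.0, 52.5 and 28.4 CPM in AD lungs and 88.0, 82.5 and 78.3 CPM in control lungs (edgeR adjusted p = 0.0435). Genes of arteries, veins and lymphatics gave no call among 14 tested, and Vwf, von Willebrand factor, stood at 453, 285 and 279.5 CPM in AD lungs and 136, 416 and 403 CPM in control lungs.

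All 15 tested genes of smooth muscle and pericytes had negative fold changes, and 2 fell. Cspg4, the pericyte proteoglycan NG2, stood at 29.2, 29.9 and 29.7 CPM in AD lungs and 29.6, 66.6 and 80.5 CPM in control lungs (log2 fold change -1.30 ± 0.12 SE, edgeR adjusted p = 0.00272). Pdgfrb, the receptor that keeps pericytes on vessels, stood at 151, 88.0 and 82.0 CPM in AD lungs and 45.9, 241 and 289 CPM in control lungs (log2 fold change -1.30 ± 0.27 SE, edgeR adjusted p = 0.0342). Control replicate 1 lay at the AD level for Cspg4 and below it for Pdgfrb. With the trends in length and GC content removed Cspg4 still fell, and Pdgfrb did not pass (edgeR adjusted p = 0.0778). Postn, the matrix protein periostin, passed after that removal (log2 fold change -1.09, edgeR adjusted p = 0.0407). Its groups overlapped, at 421, 245 and 270.4 CPM in AD lungs and 360.1, 413 and 441 CPM in control lungs, and its log2 fold change before removal was -0.45 ± 0.23 (SE, edgeR adjusted p = 0.254). Of 31 matrix genes tested, Eln, tropoelastin, fell to 210.0, 165 and 155 CPM in AD lungs, against 60.8, 540.0 and 377 CPM in control lungs (edgeR adjusted p = 0.0133), and Fbln1, fibulin 1 of elastic fibres, fell to 16.4, 30.2 and 39.6 CPM in AD lungs, against 48.8, 72.3 and 68.8 CPM in control lungs (edgeR adjusted p = 0.0452). Cxcl12, the stromal chemokine that retains leukocytes through CXCR4, fell to 200.4, 291 and 248 CPM in AD lungs, against 143, 453 and 531 CPM in control lungs (edgeR adjusted p = 0.0239). For Eln and Cxcl12 control replicate 1 was below all AD lungs. Spon2, an extracellular matrix protein and integrin ligand, fell to 2.03, 3.33 and 3.61 CPM in AD lungs, against 4.17, 23.2 and 12.5 CPM in control lungs (edgeR adjusted p = 0.0104), and Papln, the proteoglycan-like papilin, to 0.657, 0.46 and 0.621 CPM in AD lungs, against 0.982, 3.03 and 2.05 CPM in control lungs (edgeR adjusted p = 0.0467). With those trends removed Eln and Spon2 still fell, while Fbln1, Cxcl12 and Papln did not pass (edgeR adjusted p = 0.111, 0.0574 and 0.126).

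**Figure D4:**
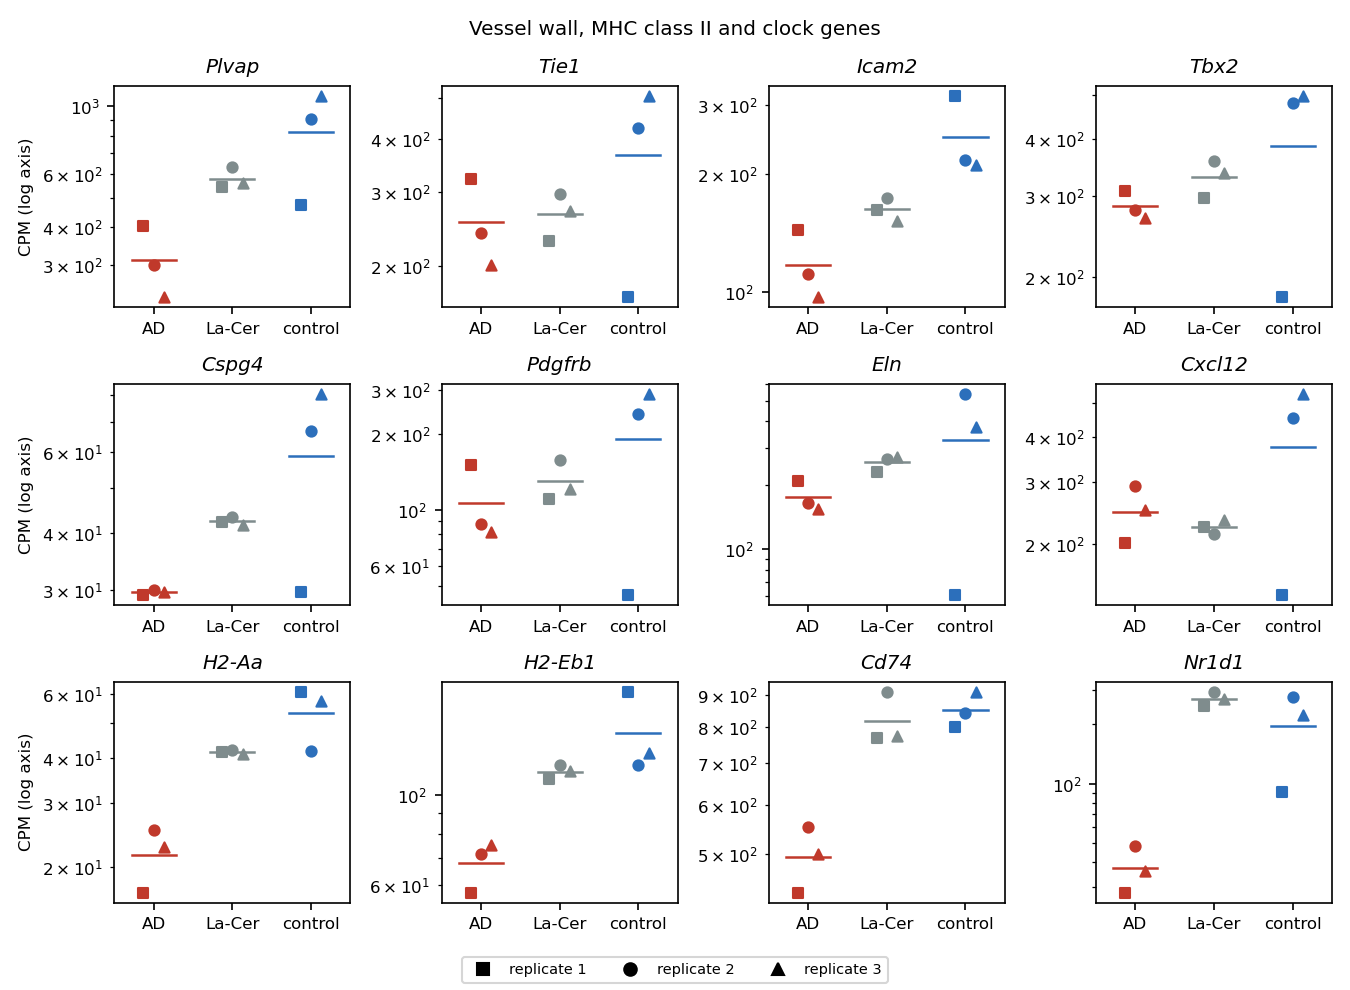
CPM on a log axis in each lung library for genes of the vessel wall and stroma, of MHC class II presentation, and for the clock gene Nr1d1; points are libraries, shapes are replicates and lines are group means. All AD libraries lie below control replicates 2 and 3 in every panel, while control replicate 1, drawn as a blue square, lies below or among the AD libraries for Tie1, Tbx2, Cspg4, Pdgfrb, Eln and Cxcl12.

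Of 14 alveolar type 2 genes tested, 2 rose and none fell, and 12 had positive fold changes. Lyz1, the lysozyme that mouse alveolar type 2 cells secrete, stood at 1206, 1303 and 754 CPM in AD lungs and 1509.9, 528 and 403 CPM in control lungs (edgeR adjusted p = 0.0387), and Cxcl15, also called lungkine, at 1386, 1295 and 864 CPM in AD lungs and 1166, 658 and 573 CPM in control lungs (edgeR adjusted p = 0.0482). Ctsh, the cathepsin that processes surfactant proteins, rose as well, to 504, 347 and 273 CPM in AD lungs, against 503, 179.6 and 196 CPM in control lungs (edgeR adjusted p = 0.0491), and was the only call among 12 surfactant genes. Control replicate 1 lay inside or above the AD range for all 3 genes, and none was called with the trends in length and GC content removed. Alveolar type 1, club and ciliated cell lists gave no call among 12, 12 and 20 genes, and Scgb1a1, the secretoglobin of club cells, stood at 30190.3, 17849.5 and 61903 CPM in AD lungs and 59656, 35969 and 52446 CPM in control lungs.

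Nr1d1, the clock repressor REV-ERBα, fell to 28.0, 48.4 and 35.9 CPM in AD lungs, against 90.4, 276 and 222 CPM in control lungs and 248, 293 and 268 CPM in La-Cer lungs (log2 fold change -2.73 ± 0.23 SE, edgeR adjusted p = 0.00217; 0.0543 with all 3 controls). All AD libraries lay below all controls. Dbp, an output gene of the clock, stood at 12.96, 45.2 and 45.4 CPM in AD lungs and 132, 95.2 and 92.7 CPM in control lungs, and Npas2, an activator of Nr1d1, at 10.45, 3.28 and 6.27 CPM in AD lungs and 0.123, 2.19 and 2.11 CPM in control lungs, and neither passed. No source used here gives the hour at which lungs were taken, and hour and group cannot be told apart.

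Cell division genes gave 3 rises and no fall among 28 tested, and 22 had positive fold changes. Top2a, topoisomerase IIα of dividing cells and named because it passed, stood at 9.79, 17.9 and 16.0 CPM in AD lungs and 8.22, 4.72 and 6.16 CPM in control lungs (edgeR adjusted p = 0.0471). Kif11, a spindle motor, stood at 3.28, 3.56 and 3.95 CPM in AD lungs and 3.25, 1.29 and 1.51 CPM in control lungs (edgeR adjusted p = 0.0364), and Ccnb1, cyclin B1, at 1.43, 2.87 and 1.64 CPM in AD lungs and 3.13, 0.562 and 0.362 CPM in control lungs (edgeR adjusted p = 0.0452). Control replicate 1 was the highest library for Ccnb1. No gene of the list was called with the trends in length and GC content removed.

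Vdr, the receptor through which calcipotriol acts, rose to 10.7, 7.93 and 7.40 CPM in AD lungs, against 1.96, 4.10 and 4.11 CPM in control lungs (log2 fold change 1.09 ± 0.25 SE, edgeR adjusted p = 0.0448), without overlap with any control, and did not pass with the trends in length and GC content removed (edgeR adjusted p = 0.0574). It was the only call among 6 tested vitamin D genes. Trpv6 of that list stood at 7.64, 7.64 and 7.06 CPM in AD lungs and 5.15, 3.71 and 2.90 CPM in control lungs. It did not pass (edgeR adjusted p = 0.0592), and Rxra and S100g of the list had negative fold changes. Cyp24a1, the catabolic enzyme that vitamin D induces, had 2, 0 and 0 counts in AD lungs and 0 counts in each control lung. Mt2, a metallothionein induced by metals and glucocorticoids, rose to 22.2, 19.3 and 16.5 CPM in AD lungs, against 9.26, 6.85 and 8.88 CPM in control lungs (edgeR adjusted p = 0.0195). The glucocorticoid-induced chaperone Fkbp5 stood at 238, 57.2 and 51.3 CPM in AD lungs and 42.9, 16.7 and 22.9 CPM in control lungs, high in AD replicate 1, and did not pass (edgeR adjusted p = 0.0671).

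Stress and metabolic lists gave at most 2 calls each. Ddit3, the transcription factor CHOP of the unfolded protein response, fell to 16.7, 22.0 and 16.3 CPM in AD lungs, against 52.0, 30.8 and 31.6 CPM in control lungs (edgeR adjusted p = 0.0331), the only call among 16 genes. Gclc, which limits glutathione synthesis, rose to 115, 117 and 143 CPM in AD lungs, against 63.4, 79.6 and 86.1 CPM in control lungs (edgeR adjusted p = 0.0448), while Gstm1, a glutathione transferase, fell to 375, 366 and 471 CPM in AD lungs, against 370.2, 608 and 698 CPM in control lungs (edgeR adjusted p = 0.049). Among 20 hypoxia and glycolysis genes, hexokinase Hk1 fell to 72.4, 72.4 and 66.1 CPM in AD lungs, against 36.2, 116 and 121 CPM in control lungs (edgeR adjusted p = 0.0224), and Ndrg1 fell to 37.0, 39.3 and 31.6 CPM in AD lungs, against 75.5, 63.8 and 59.2 CPM in control lungs (edgeR adjusted p = 0.0373). Ppard, a nuclear receptor for fatty acids, fell to 22.8, 28.0 and 20.3 CPM in AD lungs, against 9.82, 35.8 and 45.6 CPM in control lungs (edgeR adjusted p = 0.0496), the only call among 23 genes of fatty acid oxidation and PPAR targets. Control replicate 1 was below all AD lungs for Hk1 and Ppard and inside the AD range for Gstm1. Ces2e, a carboxylesterase, fell to 0.776, 1.26 and 2.32 CPM in AD lungs, against 9.39, 6.85 and 6.46 CPM in control lungs (edgeR adjusted p = 0.0257), and Hamp, the iron hormone hepcidin, which heart muscle also makes, fell to 0.597, 4.43 and 5.70 CPM in AD lungs, against 44.6, 18.6 and 30.1 CPM in control lungs (edgeR adjusted p = 0.0454). Ddit3, Hk1 and Ces2e still fell once the trends in length and GC content were removed. Gclc, Gstm1, Ndrg1, Ppard and Hamp did not pass then (edgeR adjusted p = 0.0749, 0.124, 0.08, 0.0979 and 0.0652). Cardiac muscle genes summed to 226, 1311 and 3083 CPM in AD lungs and 3689.5, 2178 and 3414 CPM in control lungs, lowest in AD replicate 1, which also had the lowest Hamp value. The part of heart tissue in the Hamp value was not tested.

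Among 79 cytosolic ribosomal protein genes, 3 rose and 7 fell. Besides Rps16, the falls included Rplp1, Rplp2, Rpl34, Rpl36 and Fau, and the rises were Rpl5, Rpl10 and Rpl23a, all named because they passed. Rplp1, a protein of the ribosomal stalk, stood at 351, 428 and 482 CPM in AD lungs and 1635, 879 and 1035 CPM in control lungs (edgeR adjusted p = 0.0182), and Rpl5, of the large subunit, at 15.5, 15.5 and 16.8 CPM in AD lungs and 13.5, 7.92 and 9.12 CPM in control lungs (edgeR adjusted p = 0.0293). Control replicate 1 stood above all AD lungs for Rpl23a, at 287, 236 and 293 CPM in AD lungs and 296, 183 and 134 CPM in control lungs, and inside the AD range for Rpl10. As for Rps16, all values of ribosomal protein genes are uncertain because of near-identical copies. The list's median log2 fold change was -0.06, and -0.67 with all 3 controls, and its summed CPM was 13151, 12389 and 13601 in AD lungs and 43186, 16079 and 16195 in control lungs. Of 70 nuclear genes for oxidative phosphorylation subunits, 1 rose, 3 fell and 64 had negative fold changes, with a median of -0.39, and -1.12 with all 3 controls. Cox7c, a subunit of cytochrome c oxidase, fell to 6.45, 8.51 and 10.51 CPM in AD lungs, against 84.1, 24.8 and 22.0 CPM in control lungs (edgeR adjusted p = 0.0293), and Ndufs7 of complex I fell to 43.7, 66.3 and 64.8 CPM in AD lungs, against 168, 103 and 107 CPM in control lungs (edgeR adjusted p = 0.0413). Ndufb4 and Ndufb11 are named because they passed. Ndufb4 rose to 7.35, 11.3 and 9.43 CPM in AD lungs, against 19.0, 4.27 and 4.65 CPM in control lungs, where control replicate 1 stood above all AD lungs, and its log2 fold change was 0.01 ± 0.52 (SE) with all 3 controls. Ndufb11 fell to 66.0, 89.2 and 83.4 CPM in AD lungs, against 312, 140.0 and 119 CPM in control lungs. Psmc3 was the only proteasome gene of 28 that changed, falling to 115, 116 and 116 CPM in AD lungs, against 310.2, 171 and 162 CPM in control lungs (edgeR adjusted p = 0.0404). With the trends in length and GC content removed, Rplp1, Rps16 and Rps20 were the ribosomal protein genes that fell, Ndufb4 rose and Cox7c fell among the subunits of oxidative phosphorylation, and no proteasome gene changed.

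Transcripts of tissues next to the lung varied widely between libraries. Skeletal muscle genes summed to 19.0, 44.9 and 95.9 CPM in AD lungs and 298, 112 and 177 CPM in control lungs without overlap. Adipocyte genes summed to 179, 590.0 and 120.4 CPM in AD lungs and 2017, 865 and 413 CPM in control lungs, and the brown fat uncoupler Ucp1 stood at 0.418, 237 and 0.169 CPM in AD lungs and 625, 221 and 1.45 CPM in control lungs. Red blood cell genes summed to 450.0, 57.1 and 63.1 CPM in AD lungs and 4724, 122 and 1024 CPM in control lungs. Genes of nasal and submucosal glands summed to 20.8, 1461 and 486 CPM in AD lungs and 1475, 564 and 992 CPM in control lungs. None of the tested genes of skeletal muscle, adipocytes, red blood cells or glands passed, and of the cardiac list Myh7, a slow myosin heavy chain, fell to 61.0, 68.2 and 65.6 CPM in AD lungs, against 35.9, 86.5 and 119.5 CPM in control lungs (edgeR adjusted p = 0.0469), with control replicate 1 below all AD lungs. Myh7 did not pass once the trends in length and GC content were removed (edgeR adjusted p = 0.187).

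The other lists gave no call in the fit without control replicate 1. Among processes these were complement, immediate early genes (median log2 fold change 0.38), heat shock proteins, cholesterol and fatty acid synthesis, xenobiotic metabolism, mitochondrially encoded genes (0.41), nuclear-retained long noncoding RNAs (0.59), large chromatin regulators (-0.10) and the KMT2 and SETD1 complexes (-0.05). Of the long noncoding RNAs, Gas5 fell once the trends in length and GC content were removed (log2 fold change -0.92, edgeR adjusted p = 0.0457), opposite to the list's median. Among cell types they were airway basal epithelium, fibroblasts, mesothelium (-0.81), alveolar macrophages, natural killer and innate lymphoid cells (0.73), platelets, thymus, cartilage, and neurons with Schwann cells (-0.62).

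**Figure D5:**
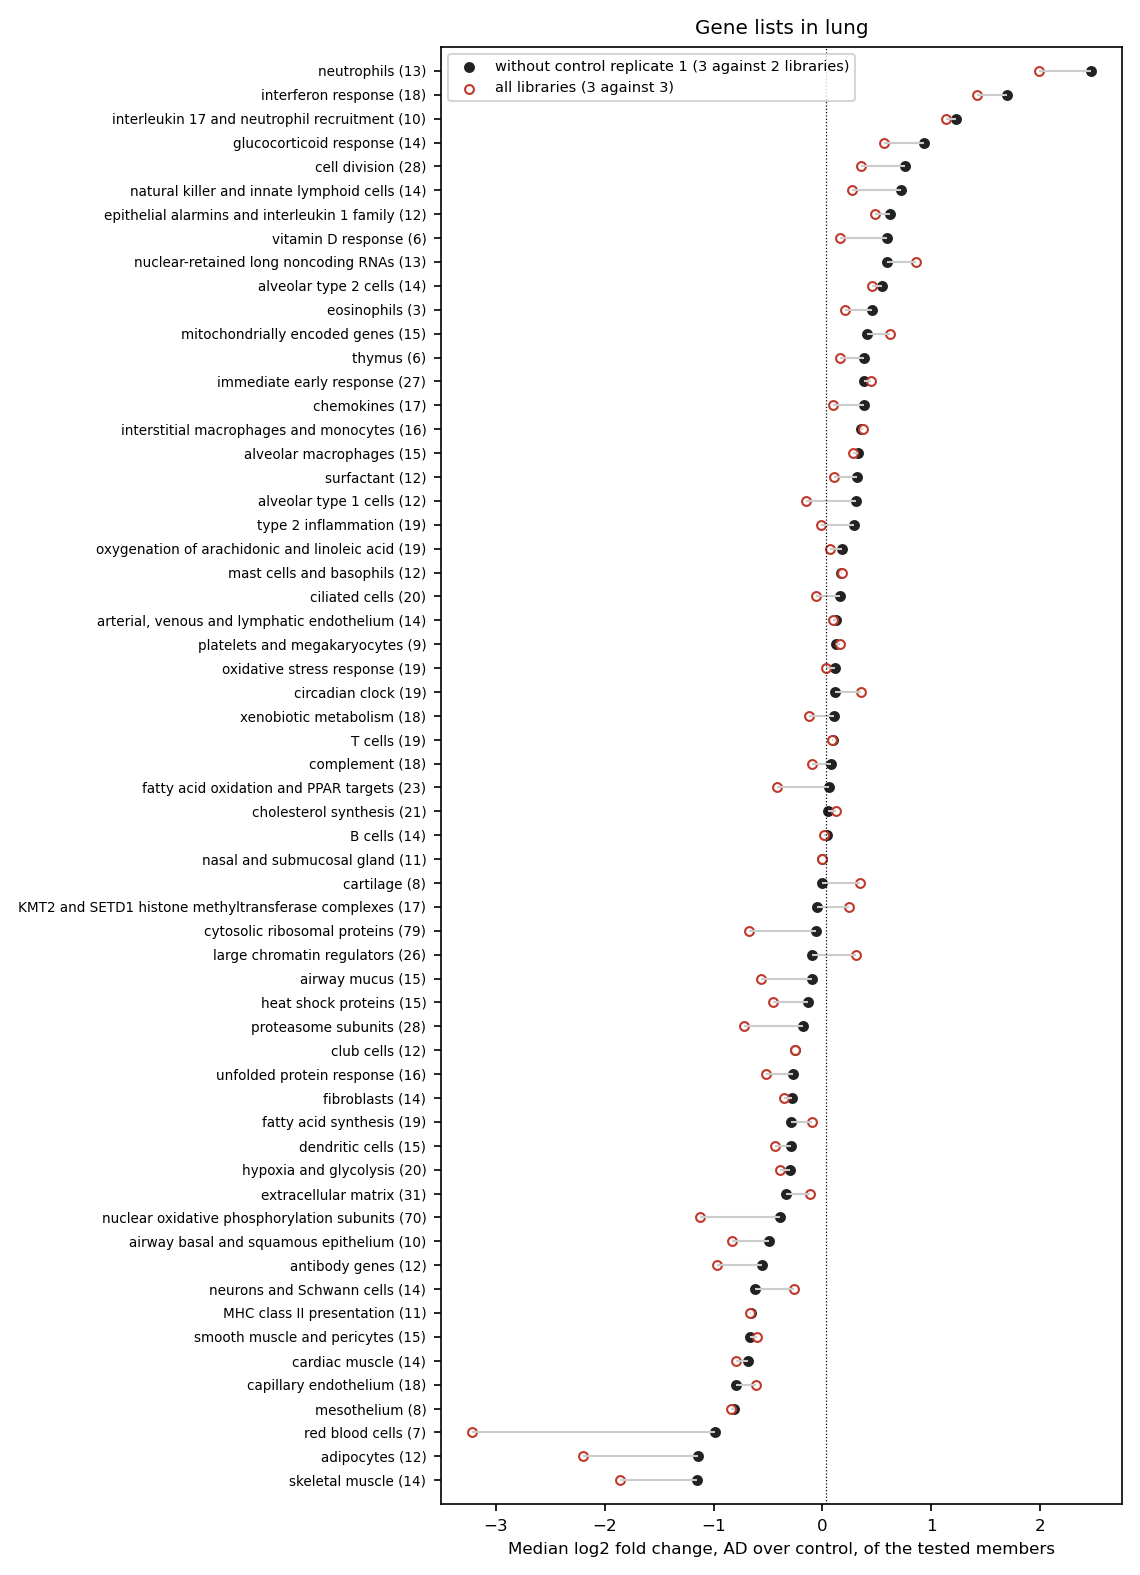
Median log2 fold change, AD over control, of the tested members of each of 60 gene lists; filled points leave out control replicate 1, open points use all 3 controls, numbers in parentheses are members tested without control replicate 1, and the dotted line is the median of all genes tested, 0.03. Neutrophil genes lie highest, at 2.47, and the lists for red blood cells and adipocytes shift most toward 0 when control replicate 1 is left out.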

How the data were processed

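Lung libraries were made with the SMARTER mRNA-Seq kit from 1.5 µg of RNA, per the labels' protocols. The tools bcl2fastq 2.17.1.14 and cutadapt 1.9.1 and the GRCm38 build are named in the submitters' processing notes, while aligner, counter and use of strand are not given in the sources used. Overlapping or antisense genes may therefore share reads. The authors deposited raw read counts for 55401 Ensembl genes, which were tested. They also deposited FPKM values, per the file headers, which equal the counts divided by exonic size and library total within 0.005 and were not tested.

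Counts were analysed in R 4.3.3 with edgeR 4.0.16 (TMM scaling, filterByExpr, robust quasi-likelihood test of AD minus control on the 9 lung libraries, and on 8 without control replicate 1), with Benjamini-Hochberg adjustment over all genes tested. Standard errors are the fold change divided by the square root of F. Alternatives used DESeq2 1.42.0, limma 3.58.1 with library weights, and loess trends (span 0.5) on exonic size and on transcript GC content from GENCODE vM21. Scripts were tested on simulated counts. Each group has 3 mice, per the series' design text. The floor of 3 counts and the counts themselves cover counting error only. Where a symbol names several genes (107 symbols), the gene with the most counts was taken.

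Named genes are, for each fit, the 8 largest called rises and falls whose groups did not overlap and whose level averaged 1 CPM or more, leaving out predicted and clone names; the smallest p-values where fewer than 3 genes passed; for each of 32 process and 28 cell type lists the 2 called members with the smallest p, or else the 2 with the highest level; and 15 genes of allergy and the airway. Any other gene in the text was chosen after its values were seen. The members and lists were chosen with earlier results of these data known. Some genes that the rule names are not reported here.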

Additional observations from a re-analysis of the deposited data

How the results depend on the processing

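With all 3 controls, where edgeR called 8 genes, the count was 20 with RLE size factors, 1492 with DESeq2, 134 without a filter, 2077 with library weights in limma, 107 with the length trend removed, 96 with the length and GC trends removed, and 1010 with the length trend removed and control replicate 1 left out. It was 0 with only the 6 libraries compared, 0 with the replicate number as a block and 0 against a fold of 1.5 (edgeR, with 2081, 3253 and 1379 genes at an unadjusted p under 0.05). Leaving out 1 library at a time gave 0 to 992. Without control replicate 1, where edgeR called 992 genes, the count was 2225 with DESeq2, 2 with only the 5 libraries compared, 18 with the replicate number as a block, 1861 with library weights, 256 with the length and GC trends removed and 23 against a fold of 1.5, and leaving out a further library gave 8 to 2157. The cause of these differences was not tested. These alternatives without control replicate 1, and the GC trend, were chosen after seeing the data. Same-numbered AD and control libraries deviated from their group means with correlations of -0.15, 0.097 and 0.020. Differently numbered libraries gave -0.241 to 0.135. With 3 libraries per group, and control means that include control replicate 1, these values cannot decide whether the numbers pair the samples.

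Of 56 named genes called without control replicate 1, all 56 kept their sign under 14 alternatives; 1 was still called with only the libraries compared, 9 without control replicate 2, 5 without control replicate 3 and 21 with both trends removed. The 56 genes were picked by their calls in these same libraries, so their kept signs are no independent support. Of 60 list medians, 9 changed sign between the fits with and without control replicate 1. Genes under the filter, Il13, Il5 and Cyp24a1 among them, were too shallow to test.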
